A study of Mus musculus with 6 samples.

Results

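The genes described here are 37 enzymes of xenobiotic, steroid and lipid metabolism among the 2195 genes listed in a comparison of Gab1IEC-KO with Gab1fl/fl mouse colons during colitis. Of these, 36 are protein coding and the other is a pseudogene, which is counted with the enzymes below. They were picked by symbol alone, as the protein-coding genes of the cytochrome P450 (Cyp), alcohol and aldehyde dehydrogenase (Adh, Aldh), aldo-keto reductase (Akr), carboxylesterase (Ces), glutathione transferase (Gst), sulfotransferase (Sult), UDP-glucuronosyltransferase (Ugt), hydroxysteroid dehydrogenase (Hsd), acyl-CoA synthetase and dehydrogenase (Acs, Acad), carnitine palmitoyltransferase (Cpt), fatty acid elongase (Elovl), stearoyl-CoA desaturase (Scd) and a few related families, plus the Cyp2d pseudogene Cyp2d34-ps. The families of flavin monooxygenases, paraoxonases, microsomal glutathione transferases, N-acetyltransferases, acyl-CoA thioesterases, fatty acid desaturases (Fads) and diacylglycerol acyltransferases (Dgat) were searched in the same way and had 0 listed genes. In the GENCODE M21 annotation 348 protein-coding genes carry such symbols, and 36 of them, or 10.3%, were listed, against 1931 of all 21951 protein-coding genes, or 8.8%. Both are shares of annotated genes, not of the 16716 genes in the authors' comparison, whose unlisted members are not known here.

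Colons of Gab1IEC-KO and Gab1fl/fl mice were sequenced, with 3 libraries in each group, numbered 1 to 3. Both groups carried the floxed Gab1 alleles, were 8 to 10 weeks old, were littermates, and had received 3% dextran sodium sulfate (DSS), which injures the colonic epithelium, in drinking water for 7 days. In Gab1IEC-KO mice Villin-Cre deleted Gab1, which encodes an adaptor protein of growth factor and cytokine receptors, in the intestinal epithelium, whereas the RNA came from whole flushed colon, so that fewer cells of a type and less RNA per cell cannot be told apart. The controls are labelled WT and are described as Gab1fl/fl in the design of the series. Gab1 itself was not analysed here, so its loss has no check in these data.

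The values are normalized counts, that is, reads per gene divided by a scaling factor for each library. The deposited table holds only genes that had an unadjusted p under 0.05 in the comparison made by the authors, so each of the 37 enzymes was listed because its groups differed. Folds, limma p-values and separation of the groups are therefore given as a description, and counts of enzymes past a threshold are set beside the share over all 2195 genes, which were listed in the same way. With 3 libraries against 3, an exact two-sided permutation test of a single gene cannot give a p below 0.1. The total depth of the libraries is unknown, and the listed genes held between 1957437 and 2787670 reads per library.

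Foreign chemicals, steroids and bile acids are handled in steps. Phase I enzymes, the cytochrome P450s, dehydrogenases, reductases and carboxylesterases, add or expose a reactive group, and phase II enzymes couple that group to glucuronide, sulfate or glutathione so that transporters can export the product. The liver is the main site, but the intestinal epithelium also carries such enzymes and meets dietary and microbial compounds first. Colonocytes further burn short-chain fatty acids from the microbiota and can reactivate glucocorticoids from their 11-keto form.

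Of the 37 enzymes, 17 had higher and 20 had lower mean log2 levels in Gab1IEC-KO than in Gab1fl/fl colons. Over all listed genes 70% were higher and 30% were lower. An unadjusted limma p under 0.05 was found for 22 enzymes, or 59.5%, against 55% of all listed genes, so the share among the enzymes was near the background. These 22 divided into 10 higher and 12 lower enzymes, where 40% of listed genes were higher and 14.9% were lower at this threshold. The libraries of the groups did not overlap for 19 enzymes (background 62.2%), of which 11 were higher (background 43%) and 8 were lower (background 19.3%). After adjustment over the 16716 genes of the authors' comparison, limma called 0 enzymes and 0% of listed genes at an adjusted p under 0.05. edgeR also called 0 enzymes and 0% of listed genes at the adjusted p, whereas DESeq2 called 2 enzymes and 5.33% of listed genes. At an unadjusted p under 0.05 edgeR called 24 enzymes (54.9% of listed genes) and DESeq2 31 (64% of listed genes). The lowest limma adjusted p, 0.384, was that of Cyp2d34-ps.

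**Figure D1:**
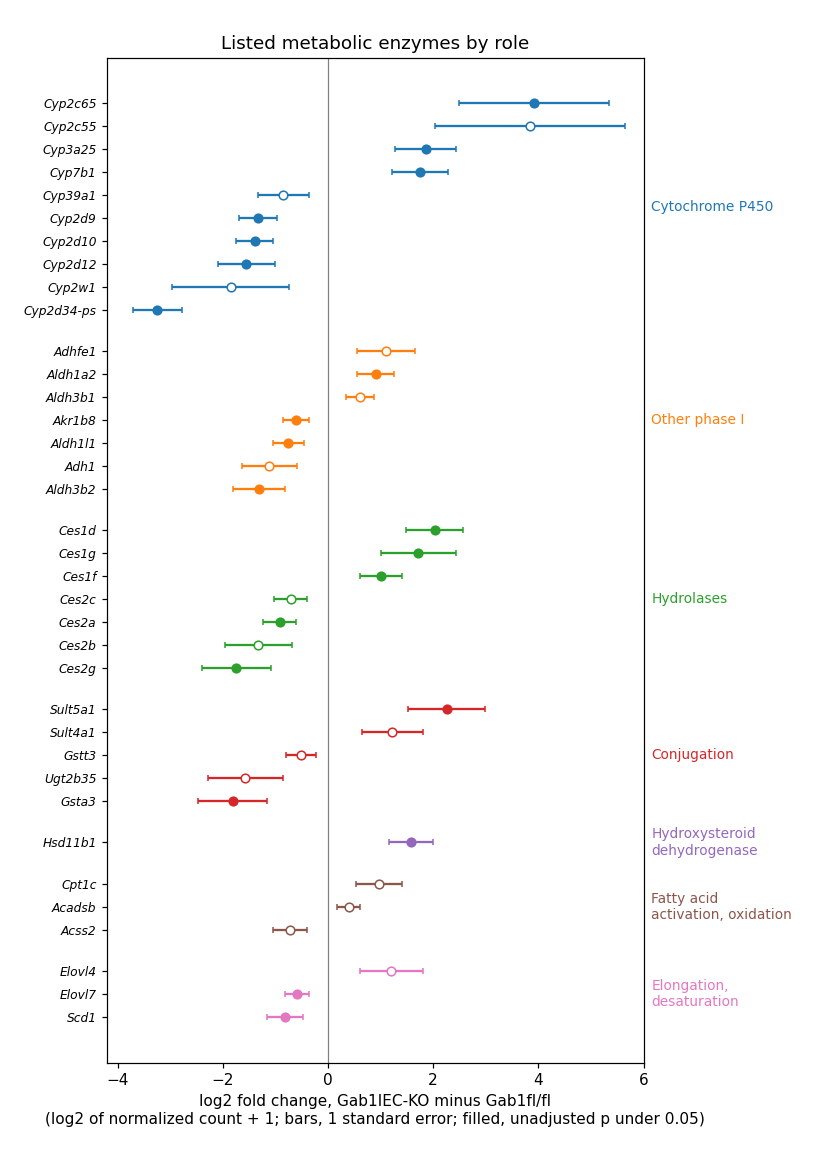
Log2 fold change (Gab1IEC-KO minus Gab1fl/fl, on log2 of the normalized count plus 1) of 36 of the enzymes, grouped by role. Bars are 1 standard error, filled points have an unadjusted limma p under 0.05, and the values run between 3.93 for Cyp2c65 and -3.25 for Cyp2d34-ps, with the Ces1 and Ces2 genes on opposite sides of 0.

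The 10 listed cytochrome P450 genes divided by subfamily. All 4 listed Cyp2d genes were lower in Gab1IEC-KO colons, both listed Cyp2c genes were higher, and the remaining 4 were mixed, with Cyp7b1 and Cyp3a25 higher and Cyp39a1 and Cyp2w1 lower. The background over all listed genes was 70% higher and 30% lower. At an unadjusted p under 0.05 there were 3 higher and 4 lower P450 genes (background 40% and 14.9%).

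The 4 Cyp2d genes lie in one cluster on chromosome 15, between 82402846 and 82612915 on GRCm38. Of the 8 protein-coding Cyp2d genes annotated, 3 were listed, beside 8.8% of all protein-coding genes. Cyp2d34-ps is annotated as an unprocessed pseudogene. Cyp2d enzymes are P450s with broad drug and steroid substrates, and Cyp2d9 is known in mouse liver as a testosterone 16-alpha-hydroxylase. Cyp2d34-ps (ENSMUSG00000115914, 82608921 to 82612915, minus strand) had 7.43, 9.19 and 10.9 normalized counts in Gab1IEC-KO colons, against 82.3, 63.1 and 165 in Gab1fl/fl colons. The highest of the Gab1IEC-KO libraries lay far below the lowest Gab1fl/fl library, and the mean was 11.3-fold higher in Gab1fl/fl (9.19 ± 1.76 in Gab1IEC-KO and 103 ± 54.0 in Gab1fl/fl, SD, n = 3 each). The log2 fold change was -3.25 (standard error 0.47, limma adjusted p = 0.384). Cyp2d34-ps had the smallest unadjusted limma p of the enzymes, 0.000134, and over 12 other settings its unadjusted p remained under 0.05, with an adjusted p that lay between 5.72e-06 in DESeq2 and 1 without Gab1fl/fl replicate 2 or 3.

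Cyp2d10 (ENSMUSG00000094806, 82402846 to 82407195) had 379, 269.7 and 553 normalized counts in Gab1IEC-KO colons, against 731, 1049.5 and 1338 in Gab1fl/fl colons (log2 fold change -1.39, standard error 0.35, limma adjusted p = 0.427). Cyp2d9 (ENSMUSG00000068086, 82433437 to 82456845) had 192, 131 and 294 normalized counts in Gab1IEC-KO colons, against 468, 415 and 605 in Gab1fl/fl colons (log2 fold change -1.33, standard error 0.36, limma adjusted p = 0.432). Cyp2d12 (ENSMUSG00000096852, 82555072 to 82560403) had 75.3, 67.4 and 218 normalized counts in Gab1IEC-KO colons, against 253, 224 and 508 in Gab1fl/fl colons (log2 fold change -1.56, standard error 0.54, limma adjusted p = 0.563). In each of the 3 genes every Gab1IEC-KO library was below every Gab1fl/fl library, with the narrowest gap in Cyp2d12, where Gab1IEC-KO replicate 3 at 218 lay next to Gab1fl/fl replicate 2 at 224. The unadjusted p of Cyp2d12 passed 0.05 without Gab1IEC-KO replicate 1, Gab1IEC-KO replicate 2 or Gab1fl/fl replicate 3, up to 0.0854, while those of Cyp2d9, Cyp2d10 and Cyp2d34-ps did not pass it without any single library. Adding the replicate number as a block left the p of Cyp2d10 and Cyp2d9 under 0.05.

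The Cyp2d values are not fully separate measurements. The transcript of Cyp2d10 aligned to those of Cyp2d9, Cyp2d11, Cyp2d12 and Cyp2d34 at 91.8%, 94.4%, 90.5% and 90.1% identity over nearly its whole length, and the sources used here do not say how reads matching several genes were counted. Cyp2d9 also shares exon sequence with the transcribed pseudogene Gm46501 on the same strand. Cyp2d11 and Cyp2d34 were not listed.

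Cyp2c55 and Cyp2c65 lie side by side on chromosome 19 between 39007019 and 39093944. Mouse Cyp2c enzymes oxidise arachidonic and linoleic acid as well as drugs, and Cyp2c55 and Cyp2c65 are known as members of the subfamily that are expressed in the intestine. Cyp2c55 (ENSMUSG00000025002) had 1959, 8.17 and 719.6 normalized counts in Gab1IEC-KO colons, against 40.1, 11.2 and 7.66 in Gab1fl/fl colons. The Gab1IEC-KO libraries spread 239.7-fold among themselves, replicates 1 and 3 lay far above every Gab1fl/fl library, and replicate 2 fell within the Gab1fl/fl range. The log2 fold change of 3.85 (standard error 1.81) had an unadjusted limma p of 0.0669 and an adjusted p of 0.732. It was 6.19 without Gab1IEC-KO replicate 2 (unadjusted p of 0.000113) and 2.32 without Gab1IEC-KO replicate 1 (unadjusted p of 0.213). edgeR and DESeq2, run on recovered reads, gave unadjusted p-values of 0.00852 and 0.000545, and the replicate block gave 0.0112.

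Cyp2c65 (ENSMUSG00000067231) had 1207, 44.9 and 114 normalized counts in Gab1IEC-KO colons, against 34.1, 25.4 and 0.958 in Gab1fl/fl colons. The groups did not overlap, but Gab1IEC-KO replicate 2 lay just above Gab1fl/fl replicate 1 and the lowest Gab1fl/fl value was a single read. The log2 fold change was 3.93 (standard error 1.43, limma adjusted p = 0.603), and it was 2.57 without Gab1IEC-KO replicate 1. Without Gab1IEC-KO replicate 1 or Gab1fl/fl replicate 3 its unadjusted p passed 0.05, up to 0.0896. The transcripts of Cyp2c65 and the unlisted Cyp2c66 were 96.4% identical over 83.7% of the Cyp2c65 transcript, so their reads may be divided between both genes.

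The listed Cyp2d genes on chromosome 15 were lower in Gab1IEC-KO colons and the Cyp2c genes on chromosome 19 were higher. The 150 bases before the RefSeq start of 3 of these P450 genes are shown. Capitals mark a match to TATAAA (the TATA box, either strand) or, in Cyp2c65, to CAAAGTCCA (an element bound by HNF4, a nuclear receptor of gut and liver epithelium, either strand). The stretches are chr19:39006869-39007018 (plus strand) for Cyp2c55, chr19:39060856-39061005 (plus strand) for Cyp2c65 and chr15:82407195-82407344 (minus strand) for Cyp2d10, on GRCm38.p6 from RefSeq.
Cyp2c55: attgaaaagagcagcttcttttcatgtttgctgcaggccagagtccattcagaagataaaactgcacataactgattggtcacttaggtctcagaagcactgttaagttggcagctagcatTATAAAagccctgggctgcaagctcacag
Cyp2c65: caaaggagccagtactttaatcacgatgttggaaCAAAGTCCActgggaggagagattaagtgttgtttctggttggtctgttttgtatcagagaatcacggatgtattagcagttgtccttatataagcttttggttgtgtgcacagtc
Cyp2d10: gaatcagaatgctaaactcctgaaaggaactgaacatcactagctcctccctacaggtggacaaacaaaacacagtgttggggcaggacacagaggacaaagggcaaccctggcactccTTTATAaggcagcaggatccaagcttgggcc

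Of the 37 enzymes, 25 had a RefSeq promoter, of which 11 were higher and 14 lower in Gab1IEC-KO colons. In the 250 bases before the start, TATAAA was found on either strand in 3 of the 11 higher enzymes (Ces1g, Cyp2c55 and Cyp2c65) and 3 of the 14 lower enzymes (Akr1b8, Cyp2d10 and Cyp2d9), against 12.4% of 32851 promoters. The TATAAA counted for Cyp2c65 lies farther upstream than the bases shown above. Only exact TATAAA was searched, so TATA letters of other forms, as near the end of the Cyp2c65 stretch, are not in capitals. The HNF4 element CAAAGTCCA was in 1 higher enzyme, Cyp2c65, and 0 lower enzymes, against 0.384% of promoters. TGACNNNGC, the antioxidant response element bound by NRF2, was in 2 higher (Aldh1a2 and Hsd11b1) and 2 lower enzymes (Acss2 and Gsta3), against 10.2% of promoters. GCGTG, the core of the element bound by the aryl hydrocarbon receptor, was in 3 higher and 3 lower enzymes (28.2% of promoters), and AGGTCA, the core bound by many nuclear receptors, also in 3 higher and 3 lower enzymes, Ces2a among the lower (14% of promoters). No letters searched were found on 1 side alone apart from the HNF4 element in a single gene. The Cyp2d9 stretch was 85.7% identical to that of Cyp2d10 over 147 bases, whereas no alignment was found between Cyp2c55 and Cyp2c65.

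Cyp7b1 (ENSMUSG00000039519, chromosome 3 from 18071950 to 18243338), an oxysterol and steroid 7-alpha-hydroxylase, had 130.5, 126 and 229.8 normalized counts in Gab1IEC-KO colons, against 95.3, 36.6 and 26.8 in Gab1fl/fl colons. All 3 Gab1IEC-KO libraries were above the highest Gab1fl/fl library, replicate 1 (log2 fold change 1.75, standard error 0.53, limma adjusted p = 0.491), and the unadjusted p remained under 0.05 without any single library. Cyp39a1, a 24-hydroxycholesterol 7-alpha-hydroxylase, went the other way (177 ± 33.6 in Gab1IEC-KO and 365 ± 219 in Gab1fl/fl, SD, n = 3 each; limma adjusted p = 0.987) and its groups overlapped. Cyp3a25 (ENSMUSG00000029630), of the steroid and drug oxidising Cyp3a subfamily, had 1, 7 and 2 reads in Gab1IEC-KO colons, against 0 in each Gab1fl/fl library. Against an assumed floor of 3 reads over the Gab1fl/fl group, the summed Gab1IEC-KO counts were 3.37-fold higher, with 7 of the 10 reads in one library. This ratio leaves out the sampling error of so few reads and is no lower bound. The unlisted Cyp3a59 transcript was 97.0% identical to that of Cyp3a25, so these reads are uncertain. Cyp2w1, a P450 of fetal gut and colon tumours in human, was low in both groups (9.12 ± 10.7 in Gab1IEC-KO and 40.5 ± 36.2 in Gab1fl/fl, SD, n = 3 each; limma adjusted p = 1).

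**Figure D2:**
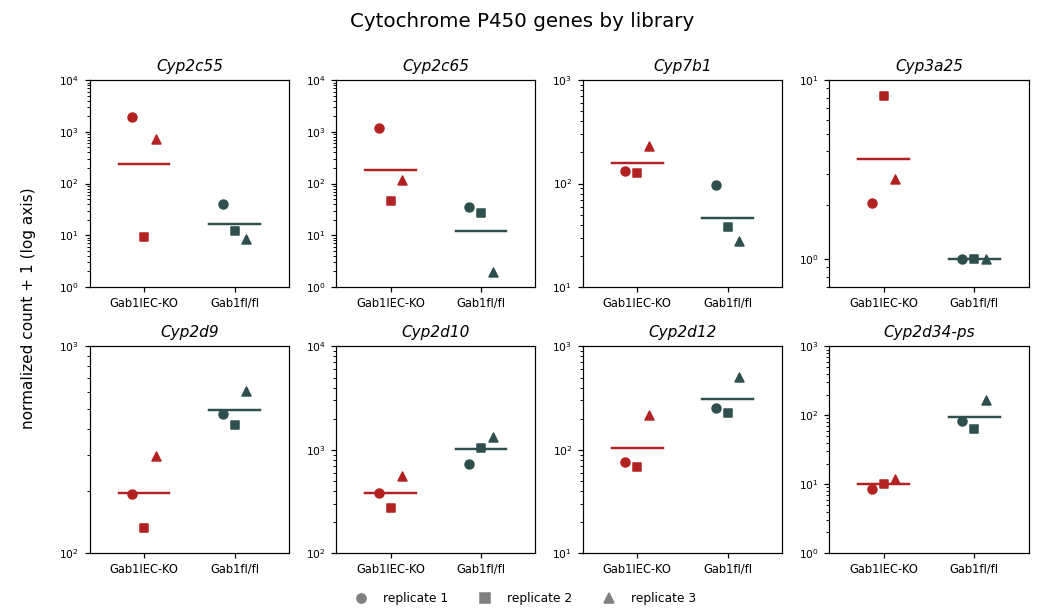
Normalized count plus 1 (log axis) of 8 cytochrome P450 genes in each library, Gab1IEC-KO left and Gab1fl/fl right, with symbols for the replicate number and a line at the geometric mean. The Cyp2d genes sit lower in all 3 Gab1IEC-KO libraries, whereas Gab1IEC-KO replicate 2 stands apart for Cyp2c55 at 8.17 normalized counts against 1959 and 719.6 in the other libraries of its group.

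Carboxylesterases also divided by subfamily. All 3 listed Ces1 genes were higher in Gab1IEC-KO colons (background 70%) and all 4 listed Ces2 genes were lower (background 30%). At an unadjusted limma p under 0.05 there were 3 Ces1 genes, all higher (background 40%), and 2 Ces2 genes, both lower (background 14.9%). Carboxylesterases hydrolyse ester and amide bonds in drugs and lipids. Ces1d is a triacylglycerol hydrolase of liver and fat, Ces1g is known to hydrolyse lipids in liver and intestine, and Ces2 enzymes are the main carboxylesterases of the intestine, with Ces2c known as an acylcarnitine and triglyceride hydrolase. Of the annotated genes, 3 of 8 Ces1 and 4 of 7 Ces2 genes were listed, beside 8.8% of all protein-coding genes. Both clusters are on chromosome 8, Ces1 from 93166068 to 93337308 and Ces2 from 104734003 to 104969537.

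Ces1d (ENSMUSG00000056973) had 1359, 502 and 1059 normalized counts in Gab1IEC-KO colons, against 400.4, 233 and 112 in Gab1fl/fl colons, without overlap (log2 fold change 2.03, standard error 0.54, limma adjusted p = 0.429). It was 3.92-fold higher by the means and its unadjusted p remained under 0.05 without any single library. DESeq2 gave Ces1d an adjusted p of 0.0452, against 0.429 in limma, and over the settings tried it reached 1. Ces1g (ENSMUSG00000057074) had 392, 157 and 211 normalized counts in Gab1IEC-KO colons, against 187, 75.3 and 24.9 in Gab1fl/fl colons, with Gab1fl/fl replicate 1 above Gab1IEC-KO replicate 2 (log2 fold change 1.72, standard error 0.71, limma adjusted p = 0.669). Ces1f (ENSMUSG00000031725) had 598, 209 and 382 normalized counts in Gab1IEC-KO colons, against 179.6, 180.2 and 178 in Gab1fl/fl colons (log2 fold change 1.01, standard error 0.40, limma adjusted p = 0.631). The Gab1fl/fl libraries of Ces1f lay within 1.01-fold of each other, whereas the Gab1IEC-KO libraries spread 2.86-fold. In all 3 Ces1 genes Gab1IEC-KO replicate 1 was the highest and replicate 2 the lowest of the group. The unadjusted p of Ces1f and Ces1g passed 0.05 without Gab1IEC-KO replicate 1 or 3 or Gab1fl/fl replicate 2 or 3, and for Ces1f also without Gab1fl/fl replicate 1, up to 0.139 and 0.138.

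Ces2a (ENSMUSG00000055730) had 595, 348 and 483 normalized counts in Gab1IEC-KO colons, against 639, 968 and 1101 in Gab1fl/fl colons, without overlap (log2 fold change -0.92, standard error 0.31, limma adjusted p = 0.554). Ces2g (ENSMUSG00000031877) had 90.2, 176 and 526 normalized counts in Gab1IEC-KO colons, against 406, 669 and 1165 in Gab1fl/fl colons (log2 fold change -1.74, standard error 0.66, limma adjusted p = 0.615). For Ces2g the groups overlapped, since Gab1IEC-KO replicate 3 was above Gab1fl/fl replicate 1. Ces2b and Ces2c were also lower on average (log2 fold changes -1.32 and -0.71), with unadjusted p-values of 0.0748 and 0.054 in limma and 1 overlapping library pair each. Leaving out Gab1IEC-KO replicate 2 or Gab1fl/fl replicates 2 or 3 took the unadjusted p of both Ces2a and Ces2g over 0.05, as did Gab1IEC-KO replicate 1 for Ces2g, up to 0.0742 for Ces2a and 0.113 for Ces2g. Ces2b and Ces2c transcripts were 91.0% identical, Ces2c was 96.1% identical to the unlisted Ces2d-ps and Ces2a was 92.1% identical to the unlisted Gm7208, so reads can be divided among them.

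The 150 bases before the RefSeq starts of Ces2a, Ces2c and Ces2g are shown as the promoters of neighbours that were all lower in Gab1IEC-KO colons, at chr8:104733853-104734002, chr8:104846918-104847067 and chr8:104961568-104961717 (plus strand, GRCm38.p6). The 150 bases shown carry none of the letters searched above, so no base is in capitals. The AGGTCA counted above for Ces2a lies farther upstream.
Ces2a: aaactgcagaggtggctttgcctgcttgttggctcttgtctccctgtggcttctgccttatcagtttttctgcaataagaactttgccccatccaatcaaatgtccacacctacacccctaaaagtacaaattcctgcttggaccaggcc
Ces2c: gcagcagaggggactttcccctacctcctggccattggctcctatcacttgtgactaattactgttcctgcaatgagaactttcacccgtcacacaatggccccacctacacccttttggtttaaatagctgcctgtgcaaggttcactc
Ces2g: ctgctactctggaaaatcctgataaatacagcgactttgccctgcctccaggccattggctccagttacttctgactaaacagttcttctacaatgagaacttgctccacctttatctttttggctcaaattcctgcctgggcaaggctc
Ces2a and Ces2c were 71.1% identical over 114 aligned bases and Ces2c and Ces2g were 82.2% identical over 73 aligned bases, whereas Ces2a and Ces2g aligned over only 22 bases.

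**Figure D3:**
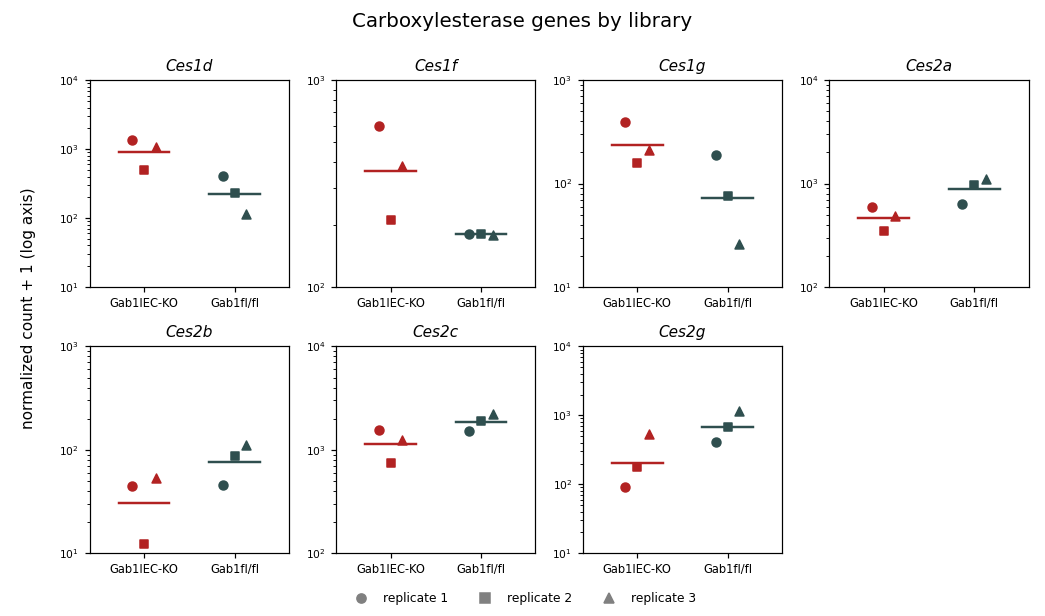
Normalized count plus 1 (log axis) of the 7 listed carboxylesterase genes in each library, Gab1IEC-KO left and Gab1fl/fl right, with a line at the geometric mean. The 3 Ces1 genes have the higher mean in Gab1IEC-KO and the 4 Ces2 genes the higher mean in Gab1fl/fl, and single libraries overlap in Ces1g, Ces2b, Ces2c and Ces2g.

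Among the 7 listed dehydrogenases and reductases, 3 were higher (background 70%) and 4 were lower (background 30%) in Gab1IEC-KO colons. Per kilobase of gene model, Adh1, the class I alcohol dehydrogenase that oxidises ethanol and retinol, had the highest level of all 37 enzymes in both groups, with means of 1916 in Gab1IEC-KO and 4409 in Gab1fl/fl normalized counts per kilobase. Its normalized counts were 2263 to 5829 in Gab1IEC-KO and 4191 to 15560.1 in Gab1fl/fl colons, with overlap (limma adjusted p = 0.727). Aldh1a2 (ENSMUSG00000013584), which makes retinoic acid from retinal, had 129, 86.8 and 89.4 normalized counts in Gab1IEC-KO colons, against 64.2, 45.8 and 50.8 in Gab1fl/fl colons, without overlap (log2 fold change 0.90, standard error 0.35, limma adjusted p = 0.631). Aldh3b2 (ENSMUSG00000075296), which oxidises lipid aldehydes, had 42.4, 82.7 and 30.1 normalized counts in Gab1IEC-KO colons, against 78.3, 129 and 167 in Gab1fl/fl colons, where Gab1IEC-KO replicate 2 passed Gab1fl/fl replicate 1 (log2 fold change -1.31, standard error 0.49, limma adjusted p = 0.609). The adjacent Aldh3b1 on chromosome 19 was higher in Gab1IEC-KO colons, without overlap (log2 fold change 0.61, limma adjusted p = 0.695). The transcript of Aldh3b2 was 95.0% identical to that of the unlisted Aldh3b3 over 42.8% of its length.

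Aldh1l1, a folate enzyme that oxidises formyl-tetrahydrofolate, and Akr1b8, an aldo-keto reductase of lipid aldehydes, were lower without overlap (log2 fold changes -0.75 and -0.61, limma adjusted p = 0.631 and adjusted p = 0.649), and Adhfe1, an oxidoreductase of hydroxy acids, was higher with overlap (log2 fold change 1.10, limma adjusted p = 0.775). Without Gab1IEC-KO replicate 1 or Gab1fl/fl replicates 2 or 3 the unadjusted p of Aldh1a2, Aldh3b2, Aldh1l1 and Akr1b8 passed 0.05, as it did without Gab1IEC-KO replicate 3 for all but Aldh1l1 and without Gab1fl/fl replicate 1 for Akr1b8, with highest values of 0.128, 0.106, 0.121 and 0.116. Antisense or overlapping transcripts are annotated at Adh1, Adhfe1 and Aldh1l1, and reads from both strands cannot be told apart where the library kit does not mark strand.

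Of the 5 conjugation enzymes, the sulfotransferases Sult5a1 and Sult4a1 were higher and the glutathione transferases Gsta3 and Gstt3 and the glucuronosyltransferase Ugt2b35 were lower in Gab1IEC-KO colons. Gsta3 (ENSMUSG00000025934), an alpha class glutathione transferase, had 52.0, 232 and 70.2 normalized counts in Gab1IEC-KO colons, against 167, 437 and 524 in Gab1fl/fl colons. Gab1IEC-KO replicate 2 was above Gab1fl/fl replicate 1, and the other Gab1IEC-KO libraries were below all Gab1fl/fl libraries (log2 fold change -1.82, standard error 0.65, limma adjusted p = 0.592). Sult5a1 (ENSMUSG00000000739) had 18.0, 14.3 and 56.6 normalized counts in Gab1IEC-KO colons, against 12.0, 3.05 and 1.92 in Gab1fl/fl colons, without overlap but with only 2 to 12 reads in the Gab1fl/fl libraries (log2 fold change 2.25, standard error 0.73, limma adjusted p = 0.53). The unadjusted p of Gsta3 passed 0.05 without Gab1IEC-KO replicate 1 or 3 or Gab1fl/fl replicate 2 or 3, and that of Sult5a1 without replicate 3 of either group, up to 0.0929 and 0.0607. Ugt2b35, Gstt3 and Sult4a1 had log2 fold changes of -1.57, -0.52 and 1.22 with unadjusted p-values of 0.061, 0.102 and 0.0685 in limma, and each had overlapping groups.

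The hydroxysteroid dehydrogenase family had 1 listed gene, higher in Gab1IEC-KO colons. Hsd11b1 (ENSMUSG00000016194, chromosome 1 from 193221634 to 193264075), which reactivates glucocorticoids from their 11-keto form, had 688, 457 and 976 normalized counts in Gab1IEC-KO colons, against 355, 219 and 146 in Gab1fl/fl colons. Every Gab1IEC-KO library was above every Gab1fl/fl library, with means of 707 ± 260.2 in Gab1IEC-KO and 239.9 ± 106 in Gab1fl/fl (SD, n = 3 each), and the unadjusted p remained under 0.05 without any single library (log2 fold change 1.58, standard error 0.42, limma adjusted p = 0.429).

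Of the 6 enzymes of fatty acid metabolism described here, 2 had an unadjusted p under 0.05, both lower (background 14.9%). Elovl7 (ENSMUSG00000021696), an elongase of long-chain fatty acids, had 1358, 1961 and 1562 normalized counts in Gab1IEC-KO colons, against 2292, 2092 and 2979 in Gab1fl/fl colons, without overlap (log2 fold change -0.59, standard error 0.23, limma adjusted p = 0.631). Scd1 (ENSMUSG00000037071), which makes monounsaturated fatty acids, had 644, 1373 and 1069 normalized counts in Gab1IEC-KO colons, against 1268, 1788 and 2255 in Gab1fl/fl colons, with 1 overlapping library pair (log2 fold change -0.81, standard error 0.34, limma adjusted p = 0.678). The unadjusted p of both passed 0.05 without Gab1IEC-KO replicate 1 or 3 or Gab1fl/fl replicate 3, and Scd1 also without Gab1fl/fl replicate 2, up to 0.123 for Elovl7 and 0.158 for Scd1.

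Acss2 (ENSMUSG00000027605), which activates acetate in cytosol and nucleus, had 1002, 1621 and 1368 normalized counts in Gab1IEC-KO colons, against 1374, 2654 and 2725 in Gab1fl/fl colons, with Gab1IEC-KO replicate 2 above Gab1fl/fl replicate 1 (log2 fold change -0.72, standard error 0.33, limma adjusted p = 0.713). The exons of Acss2 overlap those of Gss, Ggt7 and Acss2os on the other strand. Cpt1c (ENSMUSG00000007783), the brain form of carnitine palmitoyltransferase 1, had 142, 82.7 and 140.5 normalized counts in Gab1IEC-KO colons, against 100.3, 48.9 and 44.1 in Gab1fl/fl colons, with 1 overlapping pair (log2 fold change 0.97, standard error 0.44, limma adjusted p = 0.717). Acadsb, the short branched-chain acyl-CoA dehydrogenase, was higher without overlap (log2 fold change 0.39, limma adjusted p = 0.954), and Elovl4, the elongase of very long chains, was higher on average (log2 fold change 1.20, limma adjusted p = 0.779). Elovl4 and Elovl7 thus lay on opposite sides of 0, neither past an adjusted p of 0.05.

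**Figure D4:**
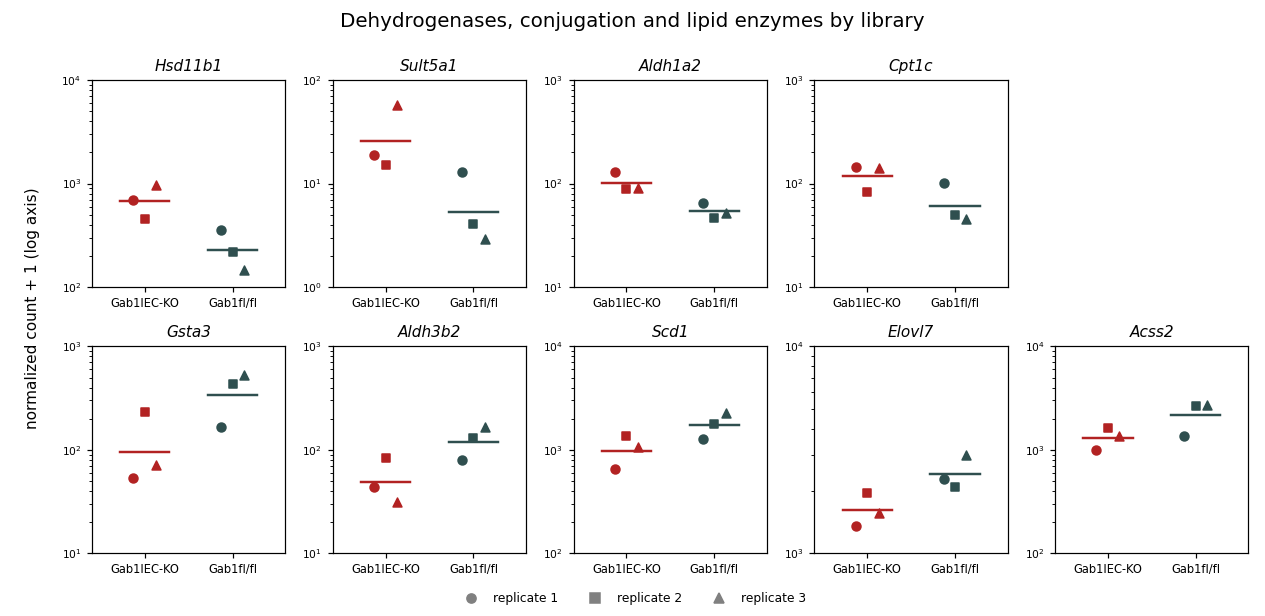
Normalized count plus 1 (log axis) of 9 dehydrogenase, conjugation and lipid enzymes in each library, Gab1IEC-KO left and Gab1fl/fl right, with a line at the geometric mean. The upper row holds 4 genes with the higher mean in Gab1IEC-KO, led by Hsd11b1 at 457 to 976 normalized counts against 146 to 355 in Gab1fl/fl, and the lower row 5 genes with the lower mean.

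Other genes of the same pathways were read from fixed lists. Of 26 receptors that sense xenobiotics, steroids and lipids 5 were listed, beside 8.8% of all annotated protein-coding genes. Ppard, the fatty acid receptor PPAR-delta, and Nr3c2, the mineralocorticoid receptor, were lower in Gab1IEC-KO colons at an unadjusted limma p under 0.05 (background 14.9%). So was Vdr, the vitamin D receptor that drives P450 genes in the gut. Vdr had 3197, 2877 and 2411 normalized counts in Gab1IEC-KO colons, against 3437, 4938 and 6006 in Gab1fl/fl colons (log2 fold change -0.73, limma adjusted p = 0.554). Ppard had 2742, 3553 and 2967 normalized counts in Gab1IEC-KO colons, against 4163, 5059 and 5017 in Gab1fl/fl colons (log2 fold change -0.62, limma adjusted p = 0.491). The estrogen receptors Esr1 (higher, log2 fold change 0.77) and Esr2 (lower, log2 fold change -1.22) were listed as well, both over an unadjusted p of 0.05. The xenobiotic receptors Nr1i2 (PXR), Nr1i3 (CAR) and Ahr and the bile acid receptor Nr1h4 (FXR) were not listed.

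Of 13 genes of NRF2, the regulator of the antioxidant response, and its other targets, 4 were listed in both directions. Gpx2 and Nqo1 were lower and Hmox1 and Me1 higher. Gpx2 alone had an unadjusted limma p under 0.05 (background 14.9% lower). Of 11 other P450 system genes 1 was listed, the soluble epoxide hydrolase Ephx2, which turns P450 epoxides of fatty acids into diols and was lower without overlap (189 ± 19.5 in Gab1IEC-KO and 302 ± 52.7 in Gab1fl/fl, SD, n = 3 each; limma adjusted p = 0.672). Of 19 drug and bile acid transporters 3 were listed, 2 higher and 1 lower in Gab1IEC-KO colons. Slc51a was among the higher, with overlap. The lower gene was the ileal bile acid binding protein Fabp6, without overlap. It had 41.4, 30.6 and 100.3 normalized counts in Gab1IEC-KO colons, against 127, 185 and 344 in Gab1fl/fl colons (limma adjusted p = 0.462).

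Some genes of the lipid and steroid lists were listed, beside 8.8% of all annotated protein-coding genes. These were Tm7sf2 and Ebp, both lower, of 21 other cholesterol synthesis genes, Ppargc1a, lower, of 25 other fatty acid oxidation and ketone body genes, Lpl and Fabp5, both higher, of 30 genes of fatty acid synthesis, uptake and storage, and Lrat, lower, as 1 of 2 listed among 23 other steroid and retinoid genes. Lpl, lipoprotein lipase, had 2308, 1448 and 2521 normalized counts in Gab1IEC-KO colons, against 1768, 366 and 276 in Gab1fl/fl colons (log2 fold change 1.85, limma adjusted p = 0.576), so Gab1fl/fl replicate 1 stood with the Gab1IEC-KO libraries. Lrat, the enzyme that stores retinol as ester, had a log2 fold change of -1.36 (limma adjusted p = 0.631).

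Markers of other cell types moved with the groups as well. Their counts stand beside a background of 8.8% of annotated protein-coding genes listed. Of all listed genes 70% were higher and 30% were lower. All 8 fibroblast markers were listed and higher in Gab1IEC-KO colons, with summed normalized counts of 43178 to 77335 in Gab1IEC-KO and 20678 to 31355 in Gab1fl/fl libraries, beside the higher Ces1d, Hsd11b1 and Cyp7b1. Neutrophil markers (5 of 9 listed, all higher) summed to 1096 to 3784 in Gab1IEC-KO and 358 to 1055 in Gab1fl/fl libraries, and monocyte and macrophage markers (4 of 8, all higher) to 3179 to 3910.1 in Gab1IEC-KO and 1999 to 2447 in Gab1fl/fl libraries. Goblet cell markers (3 of 8 listed, all lower) summed to 53366 to 81795 in Gab1IEC-KO and 105610.0 to 165712 in Gab1fl/fl libraries, and crypt stem and progenitor markers (3 of 7, all lower) to 1043 to 3567 in Gab1IEC-KO and 2384 to 5882 in Gab1fl/fl libraries, beside the lower Cyp2d and Ces2 genes. Most of each crypt sum came from Mki67, at 960 to 3482 in Gab1IEC-KO and 2283 to 5502 in Gab1fl/fl libraries, with overlap. Ascl2 and Axin2 were lower without overlap. Of 12 absorptive colonocyte markers 3 were listed, with Guca2a and Slc51a higher and Aqp8 lower. Of these markers only Ascl2 and Ngp were at 0, in Gab1IEC-KO replicate 2 and in Gab1fl/fl replicate 3. The 9 general epithelial, 6 smooth muscle and 7 adipocyte markers were not listed, so they have no values here. The part of cell makeup in the enzyme results was not tested.

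The libraries of a group were not alike. Among the 17 higher enzymes Gab1IEC-KO replicate 2 was the lowest of its group in 16, or 94.1%, against 68.1% of all higher listed genes, and Gab1fl/fl replicate 1 was the highest of its group in 15 of 16 untied enzymes, or 93.8%, against 81.7%. Among the 20 lower enzymes Gab1fl/fl replicate 3 was the highest of its group in 17, or 85%, against 64.5% of all lower listed genes. Without Gab1fl/fl replicate 1 the count of enzymes with an unadjusted limma p under 0.05 was 31 (69.4% of listed genes), and without Gab1fl/fl replicate 3 it was 7 (24.5% of listed genes). It was 10 without Gab1IEC-KO replicate 1 (33.3% of listed genes), 27 without Gab1IEC-KO replicate 2 (64%), 15 without Gab1IEC-KO replicate 3 (32.5%) and 12 without Gab1fl/fl replicate 2 (27.4%). All 37 enzymes kept their direction with each library left out, and 7 had an unadjusted p under 0.05 in every such fit, against 20% of listed genes. These were Cyp2d34-ps, Cyp2d10, Cyp2d9, Cyp7b1, Ces1d and Hsd11b1, which also stayed under 0.05 in the 6 other settings tried, and Cyp3a25, with 0 reads in the Gab1fl/fl libraries and an unadjusted p of 0.0612 in DESeq2.

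**Figure D5:**
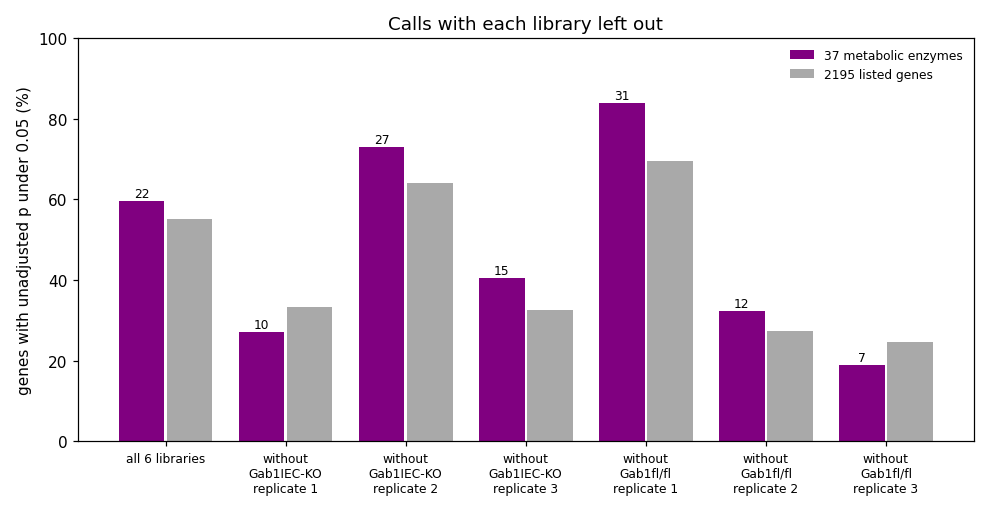
Share of the 37 enzymes and of the 2195 listed genes with an unadjusted limma p under 0.05, for all 6 libraries and with each library left out, with the number of enzymes above its bar. The enzyme count lies between 7 without Gab1fl/fl replicate 3 and 31 without Gab1fl/fl replicate 1, and the share over all listed genes moves the same way.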

How the data were processed

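RNA-Seq data of 3 Gab1IEC-KO and 3 Gab1fl/fl colon libraries were used. Per the labels, the authors aligned reads with HISAT2 2.0.5 and counted them with featureCounts 1.5.0-p3. The notes name the build hg18, but identifiers are mouse, and 34 of 37 enzymes have the coordinates of GENCODE M21 (GRCm38). The authors deposited a signal for each gene in each library (reads over a scaling factor) and gene lengths in bases. The deposited p-value columns, which belong to the authors' own comparison, served only to find that the table was limited to p under 0.05 and adjusted over 16716 genes. Their fold changes and the second sheet of the same comparison were not used. Reads recovered from the signal were whole within 0.01 for 100% of values in each library.

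Normalized counts were compared in R 4.3.3 with limma 3.58.1, after log2 transformation with a pseudocount of 1, using a variance prior with a trend that was fitted to all 2195 listed genes and so to genes picked for differing. The Benjamini-Hochberg adjustment ran over 16716 genes, the unlisted ones ranked last. Alternatives were a pseudocount of 0.1, a filter on means under 10, no trend, the replicate number as a block, each library left out, and edgeR 4.0.16 (quasi-likelihood) and DESeq2 1.42.0 on recovered reads. The fits were tested on simulated data. The labels number the libraries without naming the mice, so p-values measure only the spread between these libraries. The paper gives an n for each group that equals its number of libraries. Whether each library came from a separate mouse was not tested.

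The enzymes and the 22 gene lists were chosen with earlier results of these data known. Values per library are given for enzymes with an absolute log2 fold change of 1 or more and an unadjusted p under 0.05, for Cyp2c55 and Cyp2d34-ps, and for the 2 with the smallest p of each role group. Ranges or folds are given for the others. Enteroendocrine (0 of 6 listed), endothelial (3 of 5, higher), B cell (1 of 5, lower), glial and neuronal (4 of 5, higher) and sex-linked lists (0 of 5) were also read. Transcripts were aligned with BLAST 2.17.0 (identity of at least 90% over at least 40% of the transcript). Promoters are from RefSeq (GRCm38.p6). Gab1 was not analysed here. For 1 enzyme and 1 list gene, which stay in the counts, values are not reported here.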

Additional observations from a re-analysis of the deposited data

How the results depend on the processing

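All enzymes fitted kept their direction in each of 12 other settings, 36 of them under the filter on means and 37 elsewhere. The filter, the fit with no trend and the replicate block leave the fold changes as they were, so direction could not change there. The enzymes were also listed for differing. With each library left out, the count of enzymes at an unadjusted limma p under 0.05, 22 with all libraries, lay between 7 and 31, that of higher enzymes, 10 with all, between 4 and 15, and that of lower enzymes, 12 with all, between 3 and 19. The lowest counts came without Gab1fl/fl replicate 3, and the highest without Gab1fl/fl replicate 1, except that of the higher enzymes, which came without Gab1IEC-KO replicate 2. DESeq2 called 2 of the 37 at an adjusted p under 0.05, the pseudogene Cyp2d34-ps and the enzyme gene Ces1d, where limma and edgeR called 0. It called 117 of all listed genes. Its dispersions, like limma's prior, came from the listed genes alone. edgeR called 24 enzymes at an unadjusted p (54.9% of listed genes), of which 19 were among limma's 22, and DESeq2 31 (64%), of which 21 were among them. With the replicate block the count was 25 (57.7% of listed genes), with 19 shared, and 1 listed gene passed the adjusted p, which was not an enzyme. Same-numbered libraries deviated together with r = 0.198, 0.3 and -0.14, and differently numbered ones with r between -0.437 and 0.281. These few overlapping values cannot settle whether the numbers pair the libraries. A pseudocount of 0.1 gave 23 enzymes (54.1% of listed genes), the filter, which left 36 enzymes, gave 21 (51.7%), and no trend gave 18 (51.5%). Depth is unknown, and few reads limit Cyp3a25, Sult5a1 and the Gab1fl/fl values of Cyp2c65.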

Other observations

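Gab1IEC-KO replicate 1 stood apart in a few genes outside the enzyme families that were read from the fixed lists. Slc51a, a subunit of the basolateral bile acid exporter, had 84.9, 1.02 and 2.74 normalized counts in Gab1IEC-KO colons, against 2.01, 2.04 and 0.958 in Gab1fl/fl colons. Guca2a, the guanylin hormone of mature colonocytes, had 23136, 5569 and 4206 normalized counts in Gab1IEC-KO colons, against 4279, 1667 and 827 in Gab1fl/fl colons. Cyp2c55 and Cyp2c65 were also highest in that library, at 1959 and 1207 normalized counts. Tm7sf2, a sterol reductase of cholesterol synthesis, lay within 267 to 270.0 normalized counts in the Gab1IEC-KO libraries, against 294 to 431 in the Gab1fl/fl libraries.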
